A study of Mus musculus with 2 samples.

Results

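Ets1, Fli1, Runx1 and Runx3 encode DNA-binding factors of the ETS and Runt families, and their genomic neighbourhoods were examined in a map of TCF1 binding. Each locus was a fixed window of the mm9 genome: chr9:32450000-32620000 for Ets1 (170 kb), chr9:32180000-32400000 for Fli1 (220 kb), chr16:92550000-92880000 for Runx1 (330 kb) and chr4:134620000-134790000 for Runx3 (170 kb). The windows took in 77 of the 104683 TCF1 intervals listed for the genome. Of these, 4 lay in the Ets1 window, 10 in the Fli1 window, 22 in the Runx1 window and 41 in the Runx3 window. All of the 77 were wholly inside their window.

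TCF1, the product of Tcf7, is an HMG-box transcription factor that acts downstream of Notch in early thymocytes and, with β-catenin, as an effector of Wnt signals. ETS factors bind a GGAA core, and RUNX factors bind ACCACA-like sites as partners of CBFβ; sites of both families are frequent in T cell enhancers. Ets1 is needed for normal thymocyte development, and Fli1 is an ETS factor of blood stem cells, megakaryocytes and early T cells. Runx1 acts from the blood stem cell through the immature thymocyte, and Runx3 silences Cd4 in cells of the CD8 lineage and serves many cytotoxic and innate-like lymphocytes.

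The data came from γδ T cells sorted from the thymus of C57BL/6 mice that were TCRbeta KO, carried the Sox13tg+ transgene and were Sox13 ECFP KI/+, with a fluorescent reporter in 1 Sox13 allele. The sorted cells were CD24+ and low or negative for CFP. By the genotype of the mice, all of these cells had the transgene and lacked TCRβ. The study made 1 library by chromatin immunoprecipitation with anti-TCF1 (SantaCruz, sc-13025), from 1000000 cells fixed in 1% formaldehyde, and 1 input library from the same genotype, which was not analysed here. Its stated aim was a basal map of TCF1 in cells acquiring an effector program. Which promoter drives the transgene, and how many mice gave the cells, is not given in the sources used here. With 1 ChIP library there was no replicate and no comparison of conditions. The read depth is unknown, so an unlisted site is not shown to lack TCF1.

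Each listed interval had a position and a score. Because the score grows with width, the height, defined as the score per 50 bp of interval, was used to compare single intervals. In the whole list the median width was 200 bp and the median height 34.0. Among the 77 intervals of the loci these medians were 200 bp and 36.5. Intervals of confidence below are exact Poisson, exact binomial or order-statistic intervals (95%), and they cover counting error only. They take listed intervals as independent, which neighbouring intervals are not.

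The RefSeq promoter table (GRCm38.p6, another build than the map) had entries for 2 of the 4 genes, with 2 starts each for Runx1 and Runx3. Both genes are known to use a distal and a proximal promoter, and the sequences before the more upstream start are shown because they are the regulatory sequences at hand for the loci with the most intervals. They were matched by gene symbol, and whether a TCF1 interval covers them was not determined, since the builds differ. The 250 bases before the start, at chr16:92826075-92826324 (minus strand) for Runx1 and chr4:135120395-135120644 (plus strand) for Runx3 in GRCm38.p6, read as follows, with RUNX motifs in capitals.
Runx1 upstream start: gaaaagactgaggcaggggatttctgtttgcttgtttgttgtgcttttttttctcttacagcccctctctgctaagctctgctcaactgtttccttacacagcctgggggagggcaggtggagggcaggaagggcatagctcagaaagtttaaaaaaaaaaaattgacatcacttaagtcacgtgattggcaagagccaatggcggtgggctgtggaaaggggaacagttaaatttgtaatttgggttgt
Runx3 upstream start: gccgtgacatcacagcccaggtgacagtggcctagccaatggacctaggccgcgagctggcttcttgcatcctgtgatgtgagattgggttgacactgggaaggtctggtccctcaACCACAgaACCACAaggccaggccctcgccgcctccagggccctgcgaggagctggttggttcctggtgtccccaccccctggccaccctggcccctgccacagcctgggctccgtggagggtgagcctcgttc
Run shared by both: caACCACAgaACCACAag

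The shared run of 18 bases, with 2 RUNX motifs, was the longest stretch of identical sequence between the upstream entries of Runx1 and Runx3. It began 136 bases before the start in Runx3 and at base 27 after it in Runx1. The Runx1 copy thus lies outside the 250 bases shown, which hold no RUNX motif and no capitals. Of 32851 promoter entries of the table, 4 held it, and these belonged to Runx1, Runx2, Runx3 and the predicted gene Gm16225. The motifs searched on both strands over 300 bases per entry were CTTTGA or CTTTGT for TCF, ACCACA for RUNX and GGAAGT for ETS. They shared no letters with each other in these 4 entries, since only the RUNX motif was found. No TCF motif was found in the 4 entries, and 31.2% of all entries held one. The RUNX motif was found 2 times in each upstream entry and in neither downstream entry, against 16.8% of all entries with at least 1. The ETS motif was in none of the 4, against 23.8% of all. These matches describe letters and are not binding sites.

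TCF1 intervals were densest at Runx3 and sparsest at Ets1. Runx3 had 24.1 intervals per 100 kb (95% Poisson interval 17.3 to 32.7), Runx1 had 6.67 (4.18 to 10.1), Fli1 had 4.55 (2.18 to 8.36) and Ets1 had 2.35 (0.641 to 6.02). The Poisson interval of Runx3 did not overlap those of the other 3, which overlapped one another. These limits take listed intervals as independent, but 15 of the 41 at Runx3 ended within 1 kb of the next. The limits may thus be too narrow, and the lack of overlap is not a test. Joined within 1 kb, the densities per 100 kb were 15.3 at Runx3, 5.45 at Runx1, 3.18 at Fli1 and 1.76 at Ets1. The Runx3 density was 3.62 times that of Runx1, 5.31 times that of Fli1 and 10.3 times that of Ets1. Against the mean of its own chromosome, the density was 4.76 times as high at Runx3, 2.03 times at Runx1, 1.05 times at Fli1 and 0.544 times at Ets1. The share of the window under an interval followed the same order, with 5.32% at Runx3, 1.82% at Runx1, 1.45% at Fli1 and 0.735% at Ets1. Over the chromosomes this share was 1.31% on chromosome 4, 0.841% on chromosome 16 and 1.13% on chromosome 9.

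**Figure D1:**
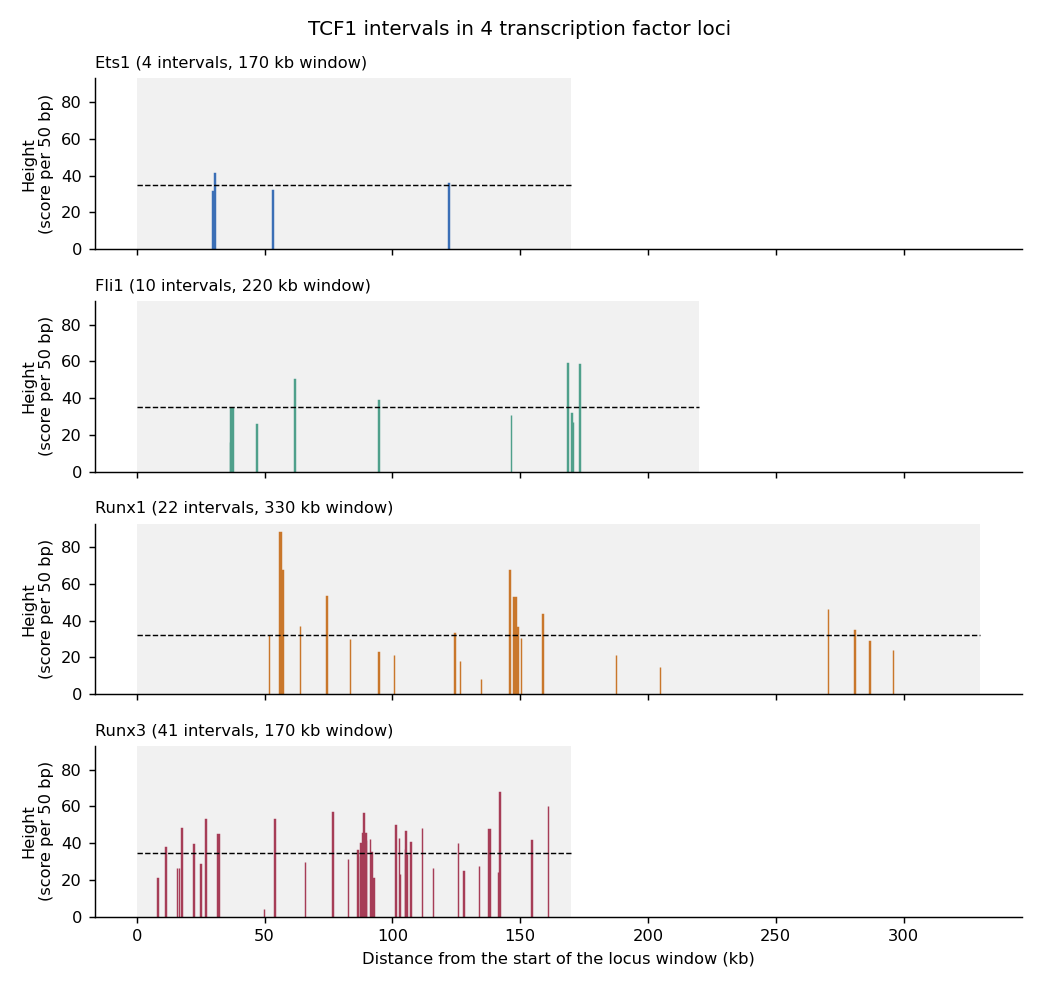
Height (score per 50 bp) of each TCF1 interval against its distance from the start of the locus window (kb), in 4 panels with the same axes; grey marks the window, the dashed line is the median height of the chromosome, and very narrow bars are drawn at the width of the line. The 41 intervals of Runx3 fill their 170 kb, the 22 of Runx1 gather in places with wide empty stretches, and the 4 of Ets1 are spread thinly.

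Same-size windows were moved along each chromosome in steps of 10 kb, leaving out windows that touched any of the 4 loci. On chromosome 4 the median window held 5 intervals, and 1.76% of 15212 windows held at least the 41 of Runx3. On chromosome 16 the median was 7, and 12.7% of 9421 windows held at least the 22 of Runx1. On chromosome 9 the medians were 7 at the size of Fli1 and 5 at that of Ets1. There, 34.8% of 12012 windows held at least the 10 of Fli1, and 65.7% of 12022 held at least the 4 of Ets1. Runx3 thus stood in the upper tail of its chromosome, Runx1 above its 3rd quartile of 13, and Fli1 and Ets1 within the middle range (quartiles 4 to 12 and 3 to 9). The windows overlap one another and include regions poor in genes, so these shares describe rank and are not p-values.

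**Figure D2:**
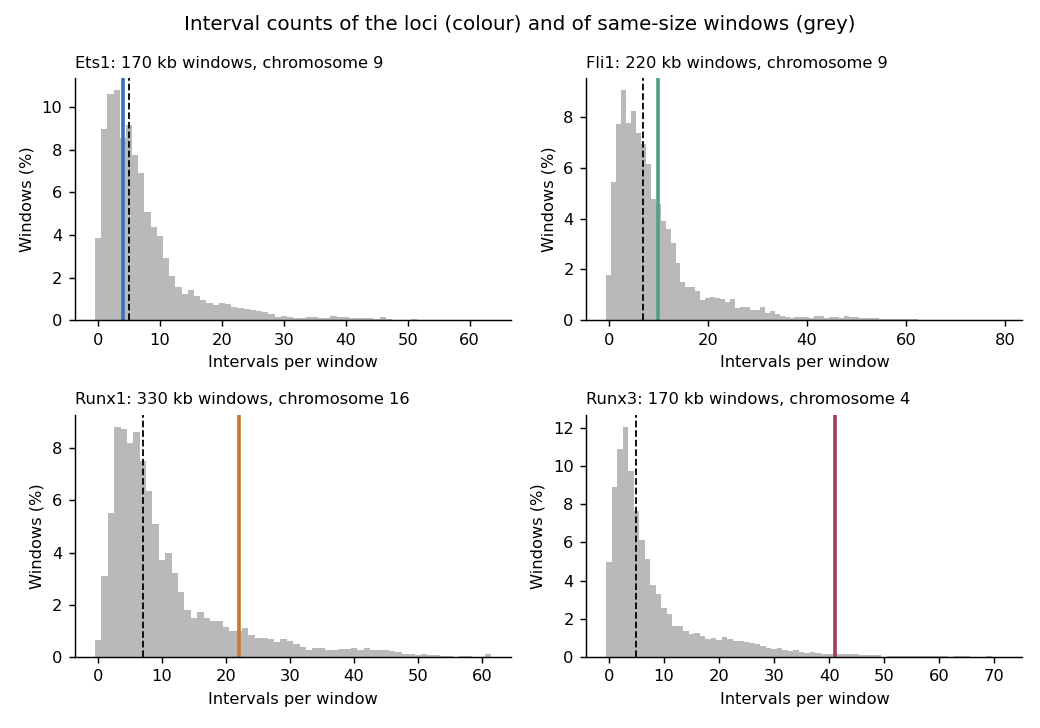
Share of same-size windows (%) by number of TCF1 intervals, with 1 panel per locus; the coloured line is the locus and the dashed line the median window. Runx3, at 41, lies far to the right of the median of 5 on chromosome 4, whereas Ets1, at 4, lies next to the median of 5 on chromosome 9.

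The Runx3 window lay in a region rich in intervals. The 170 kb directly before it held 25 intervals and the 170 kb directly after it held 16, both fewer than its own 41. The 1 Mb to either side had 14.7 and 12.9 intervals per 100 kb, above the chromosome mean of 5.07. Among windows within 10 Mb, 6.82% held at least as many intervals as Runx3, against 1.76% over the chromosome. In GRCm38 the protein-coding neighbours of Runx3 are Syf2 and Clic4, and whether the window reaches them in mm9 was not determined.

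Intervals at Runx3 were numerous and of moderate height, with no dominant peak. Their median height was 40.0 (95% interval 32.9 to 44.9) and the chromosome median was 34.9, inside that interval. Of the 41, 26 were above the chromosome median, as 50% of the chromosome's intervals are by construction. Among windows with at least 5 intervals, 23.5% had a median height at least as high, and among windows whose count was within 25% of 41 it was 52.2%. The typical median in windows of that count was 40.2. By height, 2 of the 41 were in the upper 10% of the whole list (4.88%, 95% exact binomial interval 0.596% to 16.5%). The share on chromosome 4, 9.73%, was inside that interval.

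The highest interval at Runx3 was chr4:134761901-134762150, where the height was 67.7 and the score 338.25. It was 250 bp wide and ranked 231st among the 7736 intervals of chromosome 4. The next were chr4:134780751-134781050, with a height of 60.3, and chr4:134696501-134696850, with a height of 56.8. The widest, chr4:134757551-134758050 (500 bp), also had the highest score, 475, and its height was 47.5. The lowest was chr4:134669801-134669900, with a height of 4.38, and 98.2% of the list was at least as high. The first interval began at 134628051, 8.05 kb into the window, and the last ended at 134781050, 8.95 kb before its end, so the intervals ran close to both borders.

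The middle of the Runx3 window held the closest packing. A stretch of 9.4 kb, chr4:134702551-134711950, held 10 intervals with heights from 31.6 to 56.5, and 25.5% of it lay under an interval. On chromosome 4, 0.504% of intervals had at least 10, themselves included, in the 10 kb from their start, and the median was 2. Here and at the other loci, the densest stretch of a locus was set against single intervals not picked as densest. Such a share is low in part by construction, and the densest stretches of same-size windows were not measured. Of the 41 intervals, 15 ended within 1 kb of the next one. The median gap was 2.3 kb, against 6350 bp on chromosome 4, and shorter gaps follow in part from the high density. Joining intervals within 1 kb left 26, and 2.97% of windows joined alike held at least as many. Joined within 10 kb, 27 intervals (65.9%) formed a single group over 65.7 kb, chr4:134696501-134762150, which carried 65.2% of the summed score. A second group of 9 ran from chr4:134628051 to 134652000, and the longest empty stretch of the locus was 17.8 kb.

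Runx1 had a few strong places among weaker intervals. Its median height was 32.8 (95% interval 22.7 to 46.2), close to the 32.2 of chromosome 16, and 12 of 22 intervals were above the latter. The heights ran from 8.50 to 88.4. Among windows with at least 5 intervals, 42.0% had a median at least as high, and among windows whose count was within 25% of 22 it was 71.7%. The typical median in windows of that count was 36.2, above that of Runx1. Of the 22 intervals, 3 were in the upper 10% of the list by height (13.6%, 95% exact binomial interval 2.91% to 34.9%). The share on chromosome 16, 10.5%, was inside that interval. All 3 were also in the upper 5%, for which the share on chromosome 16 was not measured.

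The highest interval of all 4 loci was chr16:92605751-92606500 at Runx1, whose height was 88.4, at a score of 1326.5 over 750 bp. It ranked 20th among 3121 intervals of chromosome 16 and in the upper 0.431% of the whole list. On chromosome 16, 6.69% of same-size windows had an interval at least as high, and 11.8% of those with a count within 25% of 22. An interval of height 67.5 followed 300 bp further along the chromosome, at chr16:92606801-92607100. The second highest, chr16:92695651-92696000, had a height of 67.8 and lay in another part of the window.

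The widest and highest-scoring interval of the 4 loci was also at Runx1. It was chr16:92697001-92698400, 1400 bp wide, and its score was 1480.75 at a height of 52.9. Of the whole list, 0.188% were at least as wide and 0.383% had at least that score. It followed the second highest interval of the locus after a gap of 1 kb. The closest packing at Runx1 was the 4 intervals of chr16:92695651-92700250. On chromosome 16, 8.65% of intervals, again not picked as densest, had at least 4 in the 10 kb from their start. The lowest at Runx1, chr16:92684751-92684850 with a height of 8.50, was the interval listed directly before these 4.

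Joined within 10 kb, the intervals of Runx1 formed 9 groups. The group chr16:92695651-92708750 held 5 intervals and 43.4% of the summed score, and the group chr16:92601701-92613900 held 4 intervals and 35.1%. Together these 2 groups had 9 of the 22 intervals and 78.4% of the score. They were picked by their score, so a large share follows in part from the choice. The 2 groups with the most score held 87.8% at Fli1, 87.1% at Runx3 and 75.4% at Ets1. Such a share was not measured in same-size windows and does not set Runx1 apart. The other 13 intervals were in 7 groups, and the highest of them reached 53.7. An empty stretch of 65.5 kb separated chr16:92754601-92754750 from chr16:92820251-92820400. The first interval began at 92601701 and the last ended at 92846050.

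The region before Runx1 in coordinates was denser than Runx1 itself. The 330 kb directly before the window held 44 intervals, against 22 in the window and 8 in the 330 kb directly after it. The 1 Mb before it had 11.9 intervals per 100 kb, and the 1 Mb after it 5.70. Among windows within 10 Mb, 23.6% held at least as many intervals as Runx1, against 12.7% over the chromosome. The protein-coding neighbours in GRCm38 are Clic6 and Setd4.

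Fli1 had an interval density near the mean of chromosome 9, and most of its score lay at 1 place. The group chr9:32348151-32353300, of 4 intervals in 5.15 kb, carried 1622.75 of the summed score of 2705. On chromosome 9, 13.8% of intervals, again not picked as densest, had at least 4 in the 10 kb from their start. Its first interval, chr9:32348151-32348900, had the highest height of the locus, 58.9, and the highest score, 884, in the upper 2.23% of the list. Its last, chr9:32352901-32353300, had a height of 58.7. Both were in the upper 10% of the list by height and none of the locus was in the upper 5%. These were 2 of 10 intervals, against 10.4% of the intervals of chromosome 9. The 2 between them were lower, with heights of 32.1 and 27.2. Of same-size windows, 40.2% had a highest interval at least as high as 58.9.

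The remaining 6 intervals of Fli1 all lay on the same side of that group. The third highest was chr9:32241701-32241850, with a height of 50.3. The widest was chr9:32216601-32217450, 850 bp, with a score of 590 and a height of 34.7. The lowest, chr9:32216401-32216500 with a height of 16.3, was the first of the locus and its direct neighbour. The median height was 33.4 (95% interval 25.8 to 58.7), against 35.1 on chromosome 9, and 4 of 10 were above the latter. Of same-size windows with at least 5 intervals, 53.8% had a median at least as high, and of those with a count within 25% of 10 it was 49.4%.

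Ets1 had the fewest intervals, and they were alike in height and width. The 4 were chr9:32479601-32479900 with a height of 31.6, chr9:32480151-32480450 with 41.4, chr9:32503051-32503400 with 32.1 and chr9:32571901-32572200 with 36.1. Their scores ran from 189.75 to 248.5, and all were above the median of the list, 134. The widths were 300 bp for 3 of them and 350 bp for the other. Their median height was 34.1, next to the 35.1 of chromosome 9, with 2 of 4 above the latter. None was in the upper 10% by height, against 10.4% of the intervals of chromosome 9. Of same-size windows, 64.3% had a highest interval at least as high as 41.4.

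The first pair at Ets1 was 250 bp apart, and the share of intervals on chromosome 9 with a neighbour that close was not measured. Over the wider distance of 10 kb from their start, 51.2% of them had at least 2, themselves included. The last of the 4 was separated from the others by 68.5 kb without an interval. Of the whole list, 9.68% of intervals were at least 500 bp wide. At Runx3 these were 1 of 41, at Fli1 2 of 10 and at Runx1 2 of 22. Ets1 had none, but with 4 intervals this does not set it apart from the list.

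Fli1 and Ets1 are neighbours, and their windows are 50 kb apart. No interval was listed in these 50 kb. From the end of the strong Fli1 group at 32353300 to the first Ets1 interval at 32479601, 126 kb held none. Of 5231 gaps between neighbouring intervals on chromosome 9, 143 (2.73%) were at least as long. Being the longest gaps, they cover a larger share of the sequence than of the gap count, and that share was not measured. The region from the start of the Fli1 window to the end of the Ets1 window, 440 kb, held 14 intervals, or 3.18 per 100 kb. Beyond Ets1, towards Kirrel3 in the gene order of GRCm38, 1 Mb held 10 intervals, and before Fli1, towards Kcnj1, 1 Mb held 34. Among windows within 10 Mb, 14.1% held at least the 10 of Fli1 and 47.9% at least the 4 of Ets1, against 34.8% and 65.7% over the chromosome.

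**Figure D3:**
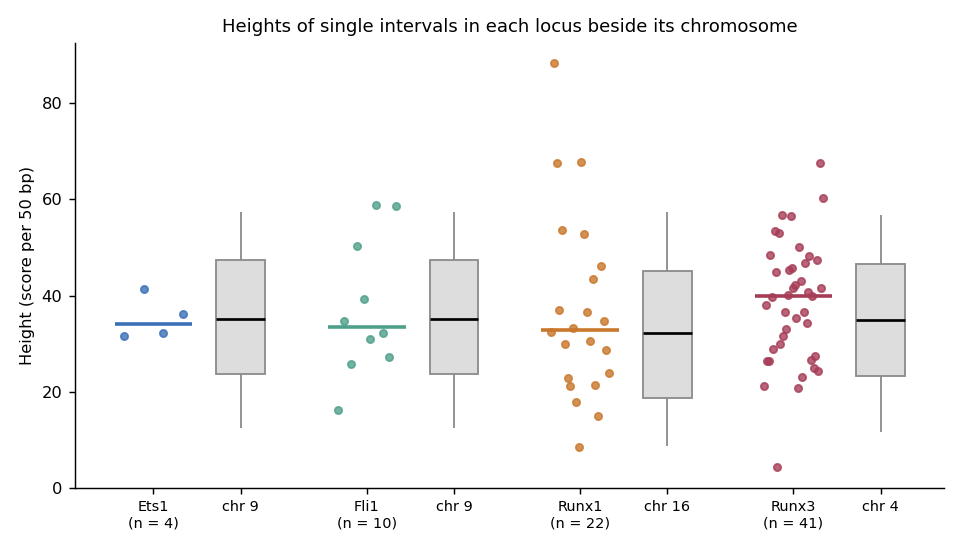
Height (score per 50 bp) of every interval, as points in order of position, with the median of each locus as a coloured line; the grey box beside it spans the quartiles of the chromosome, with its median in black and a line from the 10th to the 90th percentile. The medians of the 4 loci, 32.8 to 40.0, lie inside the boxes, and 3 intervals of Runx1 and 2 of Runx3 exceed 60.

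While the counts ran from 4 to 41, the median heights were close to one another. They ran from 32.8 at Runx1 to 40.0 at Runx3, and the 95% intervals of Fli1, Runx1 and Runx3 overlapped. With 4 intervals no such interval can be given for Ets1, whose heights lay within those of each other locus. The spread of heights was 4.53 at Ets1, 12.6 at Runx3, 14.3 at Fli1 and 19.4 at Runx1 (SD over intervals, which are not replicates).

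The loci also differed in how evenly the score was spread. At Runx3 the interval with the highest score held 6.28% of the summed score, and 10 of 41 intervals were needed for 50% of it. At Runx1 it held 26.3% and 3 of 22 were needed. At Fli1 it held 32.7% and 2 of 10 were needed. A smaller share follows in part from a larger number of intervals, so each locus was set against same-size windows of its chromosome with a count within 25% of its own. The median share in such windows was 10.8% for Runx3, and 4.42% of 588 windows had a share as low as its own. For Runx1 it was 17.9%, and 16.2% of 1078 windows had a share as high. For Fli1 it was 30.6%, and 41.7% of 2759 had one as high. For Ets1, with 28.2%, it was 50.4%, and 1.63% of 3428 had one as low. Matched windows with fewer intervals than Ets1 cannot reach so low a share, so this 1.63% was partly fixed by the match. It does not show that Ets1 was unusually even. Without the match on count, a share as low was found in 0.498% of windows for Runx3, 31.8% for Runx1, 41.3% for Fli1 and 23.6% for Ets1. Against matched windows, 83.8% for Runx1 and 58.3% for Fli1 had a share as low, so the side of the middle on which these 2 loci fell depended on the match. These comparisons were chosen after the values were seen.

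**Figure D4:**
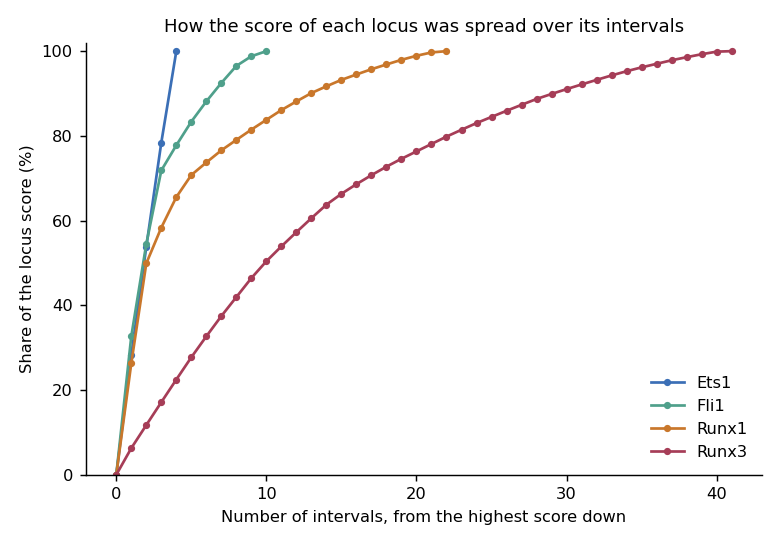
Cumulative share of the summed score of each locus (%) against the number of intervals, counted from the highest score down. The curves of Fli1 and Runx1 rise steeply, to 71.8% and 58.3% with 3 intervals, whereas that of Runx3 reaches 17.1%.

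Keeping only intervals in the upper 10% of the list by score changed the order of the loci, but with counts too small to rank them firmly. Fli1 and Runx1 then had 3 intervals each, Runx3 had 1 and Ets1 had 0. In that set 40.5% of windows held at least as many intervals as Runx3, 14.1% as many as Runx1 and 12.2% as many as Fli1. In the upper 50% by score Runx3 kept the most, with 19, followed by Runx1 with 9, Fli1 with 5 and Ets1 with 4. The share of windows with at least as many was then 4.15% for Runx3 and 35.8% for Ets1, whose intervals all stayed in this set. Of the 41 at Runx3, 22 were below the median score of the list, as were 13 of 22 at Runx1, 5 of 10 at Fli1 and none at Ets1. Summed over the window, the score per kb was 44.5 at Runx3, 17.0 at Runx1, 12.3 at Fli1 and 5.17 at Ets1. Without intervals of extreme height (the upper 0.1% of the list), the chromosomes had 10.3 on chromosome 4, 6.30 on chromosome 16 and 9.11 on chromosome 9. By this measure Ets1 was below its chromosome and the other 3 loci were above theirs.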

How the data were processed

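The file deposited by the authors lists TCF1 intervals of 1 ChIP library with 1 score each, on build mm9 (per the submitters' processing notes). How reads were aligned, how intervals were called, whether the input entered and what the deposited score means is not given in the sources used here. Library fragments of 300 to 500 bp were taken after 17 PCR cycles, per the labels' protocols. Starts and ends (other values in the deposited file) were read as inclusive and are printed counted from 1. An interval belonged to a locus if it overlapped the fixed window by at least 1 bp. Height was the score per 50 bp of width. Same-size windows ran from the first to the last interval of the chromosome. No test between groups was made, since there was 1 library. The loci, measures and alternatives were chosen with earlier results of these data known. Named by rule were the 3 highest intervals of each locus, the highest by score, the widest, the lowest, the first and the last; others were added after their values were seen. No mm9 sequence or annotation was used, so other ETS and RUNX family genes were not analysed here. The counting of intervals per window was checked on simulated positions with a planted dense locus, whose count was recovered. The software was matplotlib 3.10.9, scipy 1.17.1, pandas 2.3.3 and numpy 2.4.6 under Python 3.11.15.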

Additional observations from a re-analysis of the deposited data

How the results depend on the processing

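Among 156 values under other settings, 90 were close to the reported one, 66 moved; these values have no sign that could turn, but some crossed the middle of the windows, as given below. Close meant within 1.5 times for counts and covered shares, and otherwise inside the counting interval, taken for window shares over as many windows as fit end to end. Unless another reason is given, the cause of a shift was not tested. The upper 50% by score had, by construction, fewer intervals (Fli1 5, Runx1 9, Runx3 19), or 2.73 per 100 kb at Runx1 and 11.2 at Runx3, with 3.38% of Runx3 covered. The share of windows with at least as many was then 35.8% for Ets1 (65.7% with all intervals), 18.3% for Runx1 and 4.15% for Runx3, and the median heights were 52.9 for Runx1 and 47.5 for Runx3. The upper 10% left 0 at Ets1 (0 per 100 kb), 3 at Fli1 (1.36), 3 at Runx1 (0.909) and 1 at Runx3 (0.588), with window shares of 12.2% for Fli1 and 40.5% for Runx3. Of the Runx3 intervals, 1 was in the upper 10% by score, and in the upper 5% by height there were 1 at Runx3 and 0 at Fli1. Joining within 1 kb gave 26 at Runx3 (15.3 per 100 kb) and shares of 74.4% for Ets1, 45.7% for Fli1 and 2.97% for Runx3. Windows narrowed by 20 kb on each side gave 54.6% for Ets1 and 26.1% for Fli1, and widened ones 74.1% and 42.8%. Within 10 Mb the shares were 47.9% for Ets1, 14.1% for Fli1, 23.6% for Runx1 and 6.82% for Runx3, and those by median height 40.7% for Fli1, 59.3% for Runx1 and 31.7% for Runx3. With at least 5 intervals per window the share of Ets1 was 100% by construction, since it has 4, and the others were 51.0% for Fli1, 17.3% for Runx1 and 3.29% for Runx3. Over all autosomes they were 59.3% for Ets1, 29.8% for Fli1 and 17.7% for Runx1. With at least 3 intervals per window, the shares by median height were 47.0% for Fli1 and 19.8% for Runx3. By the score as deposited they were 47.5% for Fli1 and 53.5% for Runx3 (53.8% and 23.5% by height), and the median score of Ets1 was 220.75. Ranked by width, the top interval had a height of 32.1 at Ets1, 34.7 at Fli1, 52.9 at Runx1 and 47.5 at Runx3, and ranked by score 52.9 at Runx1 and 47.5 at Runx3. Joining at 5 kb gave 16 groups at Runx1 and 10 at Runx3, and at 20 kb 4 and 1. The share of windows whose strongest interval held as small a part of the score or smaller was 23.6% for Ets1, 41.3% for Fli1, 31.8% for Runx1 and 0.498% for Runx3 over windows with any number of intervals. Over windows with a count within 25% of the locus it was 1.63%, 58.3%, 83.8% and 4.42%, so Fli1 and Runx1 passed from below to above the middle of the windows. The 1.63% of Ets1 was partly fixed by the match, since windows with fewer intervals cannot have so low a share. No paired analysis was possible because the list came from 1 library.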
